A study of Mus musculus with 21 samples.

Results

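The cytosolic ribosomal protein genes were described in the spinal cord of 21 C57BL/6 mice from which TDP-43, which binds RNA and is linked to motor neuron disease, had or had not been deleted in oligodendrocytes. Members were chosen by symbol alone: Rpl or Rps followed by a number, with an optional letter or copy number, together with Rplp0 to Rplp2 and Rpsa, leaving out pseudogenes marked -ps. Of 82 symbols that matched, 79 had values for each library among 25127 genes in all. Each of the 79 reached a value of 5 in at least 3 libraries, and each was tested in every comparison. They comprised 40 proteins of the large subunit, 31 of the small subunit, 3 of the large subunit's stalk (Rplp0, Rplp1 and Rplp2) and 5 less common paralog copies (Rpl3l, Rpl7l1, Rpl22l1, Rps27l and Rps4l).

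Control mice were Tardbp-fl/fl without Cre. The genotype of heterozygous mice (cHET) was Cnp-Cre with Tardbp-fl/+, and that of knockout mice (cKO) was Cnp-Cre with Tardbp-fl/fl. Cnp-Cre is active in cells of the oligodendrocyte lineage, and Cnp is also expressed in Schwann cells. Which cells lost the gene was not measured in these whole-cord samples. At 21 days (P21) each genotype had 4 mice, 2 female and 2 male, with TruSeq libraries. At about 60 days (P60) each genotype had 3 mice, with NEXTflex libraries: female controls of 74 days, male cHET mice of 60 to 65 days and male cKO mice of 61 to 64 days. At P60, sex and age therefore cannot be told apart from genotype in any comparison with control. Age was joined to the library kit and to the authors' scaling, so levels were compared within an age only. Every library came from its own mouse.

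The values were normalized scaled reads per base, a level per length. They summed to 26.9 M to 29.2 M (M for 1e6) in P21 libraries and 12.5 M to 13.8 M in P60 libraries after scaling, so the number of reads is unknown. Tardbp, the targeted gene, was 2155 to 2415 in P21 control, 2030 to 2236 in P21 cHET and 1639 to 1880 in P21 cKO cord, and at P60 it was 828 to 937, 906 to 932 and 783 to 831. Its fall in cKO against cHET passed the test at both ages (limma, adjusted p = 2.5e-03 and 0.040). Against control the log2 change of Tardbp passed at P21 (-0.37, limma, adjusted p = 3.3e-04) but not at P60 (-0.14, adjusted p = 0.14). Markers of mature oligodendrocytes, neurons, astrocytes and microglia were all present in these whole-cord libraries. In such samples a change in the number of cells of a type and a change in RNA per cell cannot be told apart.

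A ribosome is built of a small subunit, which reads the message, and a large subunit, which joins amino acids. The stalk proteins recruit elongation factors to the large subunit. Cells produce the subunit proteins in matched amounts, and many of their messages begin with a run of pyrimidines, the terminal oligopyrimidine (TOP) tract, through which the mTOR kinase and Larp1 control their translation. Growing and activated cells carry more ribosomes than resting cells.

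The levels differed widely between genes. Means over the P21 libraries ran from 18.6 for Rpl3l to 10278 for Rpsa, with a median of 3528, and 69 of the 79 genes lay above 1000. Rpsa (ENSMUSG00000032518; GRCm38 chromosome 9, 120127689 to 120132369) is a small-subunit protein also known as a laminin receptor. It led with Rpl7 and Rplp1 of the large subunit. Rpl3l, Rpl12 and Rpl27 were the lowest, and Rpl3l, a copy of Rpl3 known for its expression in muscle, was the only gene under 100. At P60 the means ran from 8.64 for Rpl3l to 6878 for Rpl7, with a median of 2025. The genes lay on 19 chromosomes, 14 of them on chromosome 7, so they did not share one locus.

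The mean level of the 79 genes was higher in P21 cKO cord than in the other genotypes. The mean of log2(value + 0.5) over the 79 genes was 11.31, 11.25, 11.26 and 11.37 in the 4 control libraries. In cHET it was 11.44, 11.40, 11.32 and 11.49, and in cKO 11.63, 11.78, 11.75 and 11.88. Every cKO library lay above every cHET and control library, whereas cHET and control overlapped. At P60 the means were 10.47, 10.54 and 10.57 in control, 10.69, 10.47 and 10.43 in cHET and 10.84, 10.75 and 10.65 in cKO. There the lowest cKO library, cKO 3, lay below cHET 1, and all cKO libraries lay above all controls. As a share of all values, the genes took 0.990% ± 0.040 (SD, n = 4) in P21 control, 1.06% ± 0.039 in cHET and 1.39% ± 0.061 in cKO. The P60 shares were 1.27% ± 0.074 (SD, n = 3), 1.26% ± 0.117 and 1.38% ± 0.071. The share of mitochondrially encoded genes, which enters the same total, was 6.40% to 8.12% at P21 and 10.2% to 17.9% at P60. Without those genes in the total, P21 shares were 1.063% ± 0.044 (control), 1.138% ± 0.046 (cHET) and 1.504% ± 0.074 (cKO). The P60 shares were then 1.464% ± 0.043, 1.451% ± 0.106 and 1.665% ± 0.111 in the same order. At P60 the cHET and control means differed by less than the spread of either group.

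**Figure D1:**
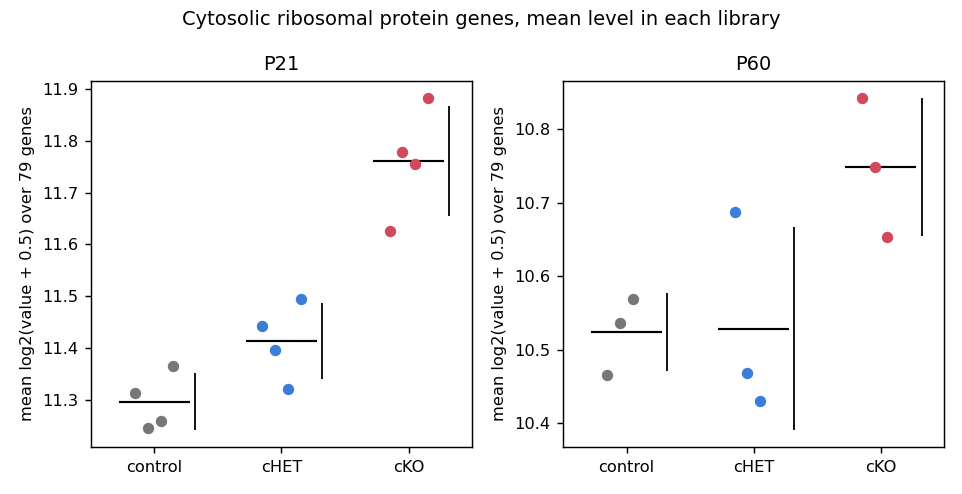
Mean of log2(value + 0.5) over the 79 cytosolic ribosomal protein genes in each library (points), by genotype, at P21 (left) and P60 (right), with the group mean (horizontal line) and SD (vertical line); the axes differ between ages and do not start at 0. The 4 P21 cKO libraries sit between 11.63 and 11.88, above all others of that age, and at P60 cHET 1 sits at 10.69, between the cKO libraries.

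Gene by gene, of the 79 genes, 61 had every P21 cKO library above every other P21 library, against 10.5% of all genes tested. At P60 26 of the 79 genes did so, against 16.6% of all genes. The highest P21 value belonged to cKO 4 for 64 genes, to cKO 2 for 8 and to cKO 3 for 5. The lowest belonged to control 2 for 29 genes and to control 3 for 27. At P60 cKO 1 held the highest value for 50 genes and cHET 1 for 17, while cHET 3 held the lowest for 31 and control 1 for 24. The matching counts over all genes are not given, so these may be traits of the libraries rather than of the 79 genes.

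Between P21 cKO and cHET mice, which both carry Cre, the genotypes differ by the second floxed Tardbp allele. Of the 79 genes, 66 rose and none fell (limma with Benjamini-Hochberg adjustment over all 17989 genes tested, threshold 0.05), while 12.6% of all genes tested were called higher and 9.97% lower. The median log2 change was 0.36, with quartiles of 0.28 and 0.43, against a median of -0.01 over all genes. The change was positive for 78 of 79 genes, and for 48.8% of all genes. For 63 genes every cKO library exceeded every cHET library, which held for 12.7% of all genes. By role, 29 of 31 small-subunit genes (median 0.39), 33 of 40 large-subunit genes (median 0.33), 3 of 3 stalk genes (median 0.42) and 1 of 5 paralog copies (median 0.07) rose. The changes were close to one another, since 71 of 79 lay between 0.2 and 0.6.

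**Figure D2:**
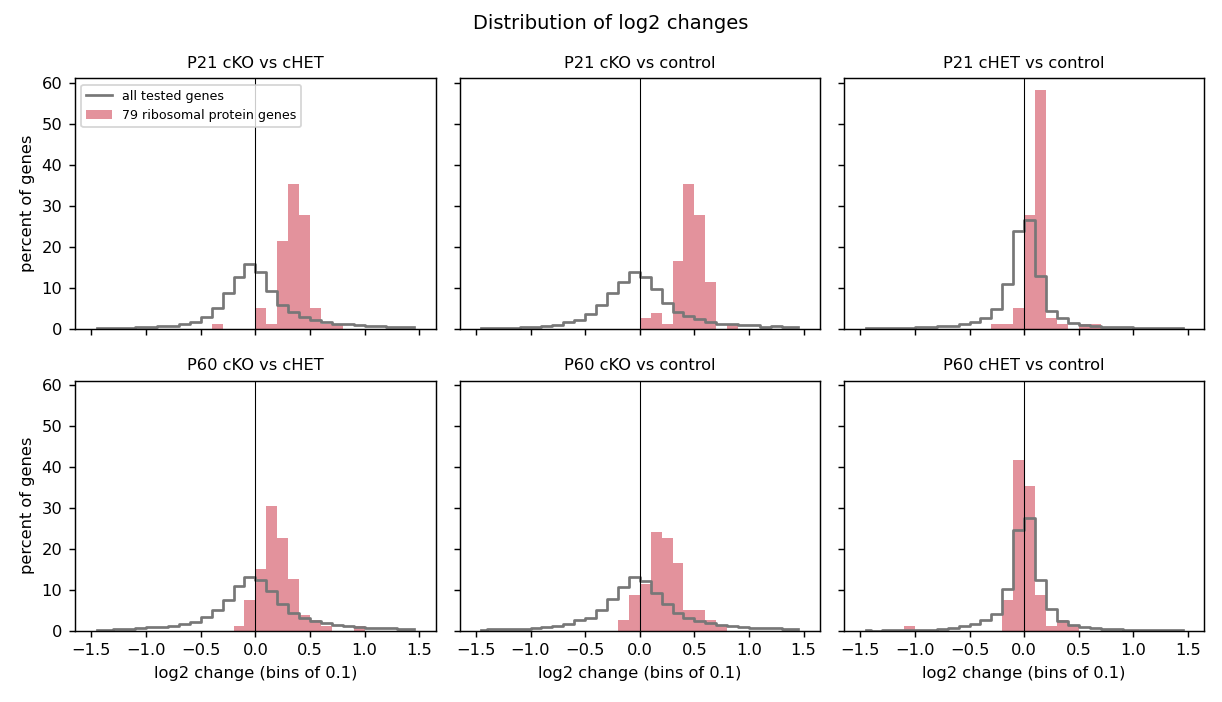
Percent of genes in bins of 0.1 of the log2 change, for the 79 ribosomal protein genes (bars) and all genes tested (line), in 6 comparisons; bins beyond ±1.5 are not drawn, which leaves out Rpl3l (1.69) in P60 cKO vs cHET. The bars lie to the right of the line in all 4 panels with cKO, with medians of 0.36 and 0.47 at P21 and 0.19 and 0.21 at P60, and the P60 cHET vs control bars centre on 0.

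In the stalk, Rplp0 (ENSMUSG00000067274; GRCm38 chromosome 5, 115559467 to 115563727), the protein on which the other stalk proteins are anchored, was 4609, 4763, 4426 and 4902 in P21 control. It was 5129, 4753, 4811 and 5371 in cHET and 6532, 7284, 7031 and 7587 in cKO. The cKO libraries stood apart from both other groups, with a rise over cHET of 0.50 ± 0.06 (SE) on the log2 scale (limma, adjusted p = 2.0e-05). Rplp1 rose by 0.37 ± 0.06.

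In the small subunit, Rps6, the protein phosphorylated by the S6 kinases downstream of mTOR, was 2683, 2364, 2187 and 2365 in P21 control, 2625, 2621, 2346 and 2506 in cHET and 3131, 3586, 3284 and 3740 in cKO. All cKO libraries lay above the rest, while control and cHET overlapped, and it rose by 0.44 ± 0.07 against cHET (adjusted p = 4.4e-04). Rps12 had the highest change of the called genes, 0.72 ± 0.13 (adjusted p = 1.2e-03). Its values were 353, 404, 268 and 402 in control, 321, 360, 328 and 364 in cHET and 453, 600, 591 and 640 in cKO, where again only the cKO group stood apart. Rps25, whose values in cKO (7466 to 8459) also cleared those in cHET (5329 to 5716), rose by 0.49 ± 0.05 (adjusted p = 6.3e-06). Rps16 rose by 0.51, Rps28 by 0.49 and Rps2, at the entry of the message channel, by 0.46. Rps27a, which is made as a fusion with ubiquitin, rose by 0.37 ± 0.08, and Rps4x, encoded on the X chromosome, by 0.41 ± 0.06. Rpsa was 8485 to 9178 in control, 9587 to 10170 in cHET and 10957 to 12800 in cKO and rose by 0.27 ± 0.05 against cHET.

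In the large subunit, Rpl32 (GRCm38 chromosome 6, 115805505 to 115808747) was 5848, 5393, 5780 and 6322 in P21 control, 6624, 6300, 5957 and 6988 in cHET and 8585, 9336, 9351 and 10144 in cKO. All cKO libraries lay above the rest, and the rise over cHET was 0.53 ± 0.07 (adjusted p = 3.8e-05). Rpl10a rose by 0.61 ± 0.14 and Rpl30 by 0.54 ± 0.15. In cHET 3 the Rpl30 value was 1590, against 2741 to 3127 in the other cHET libraries, and without that library its change was 0.32 (adjusted p = 4.0e-03). Fitted on the cKO and cHET groups alone, Rpl30 did not pass (adjusted p = 0.051). Rpl41, the shortest ribosomal protein, rose by 0.42 ± 0.08, Rpl39 by 0.47 ± 0.07, Rpl27 by 0.36 ± 0.09 and Rpl13a by 0.36 ± 0.06. The smallest changes that passed were in Rpl24, Rps24, Rpl4, Rpl11, Rpl27a, Rpl9, Rpl29 and Rpl14, between 0.23 and 0.27. Rpl3, which reaches towards the catalytic centre, changed by 0.29 ± 0.10 and passed narrowly (adjusted p = 0.044). Without cHET 1 it was 0.22 (adjusted p = 0.14).

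**Figure D3:**
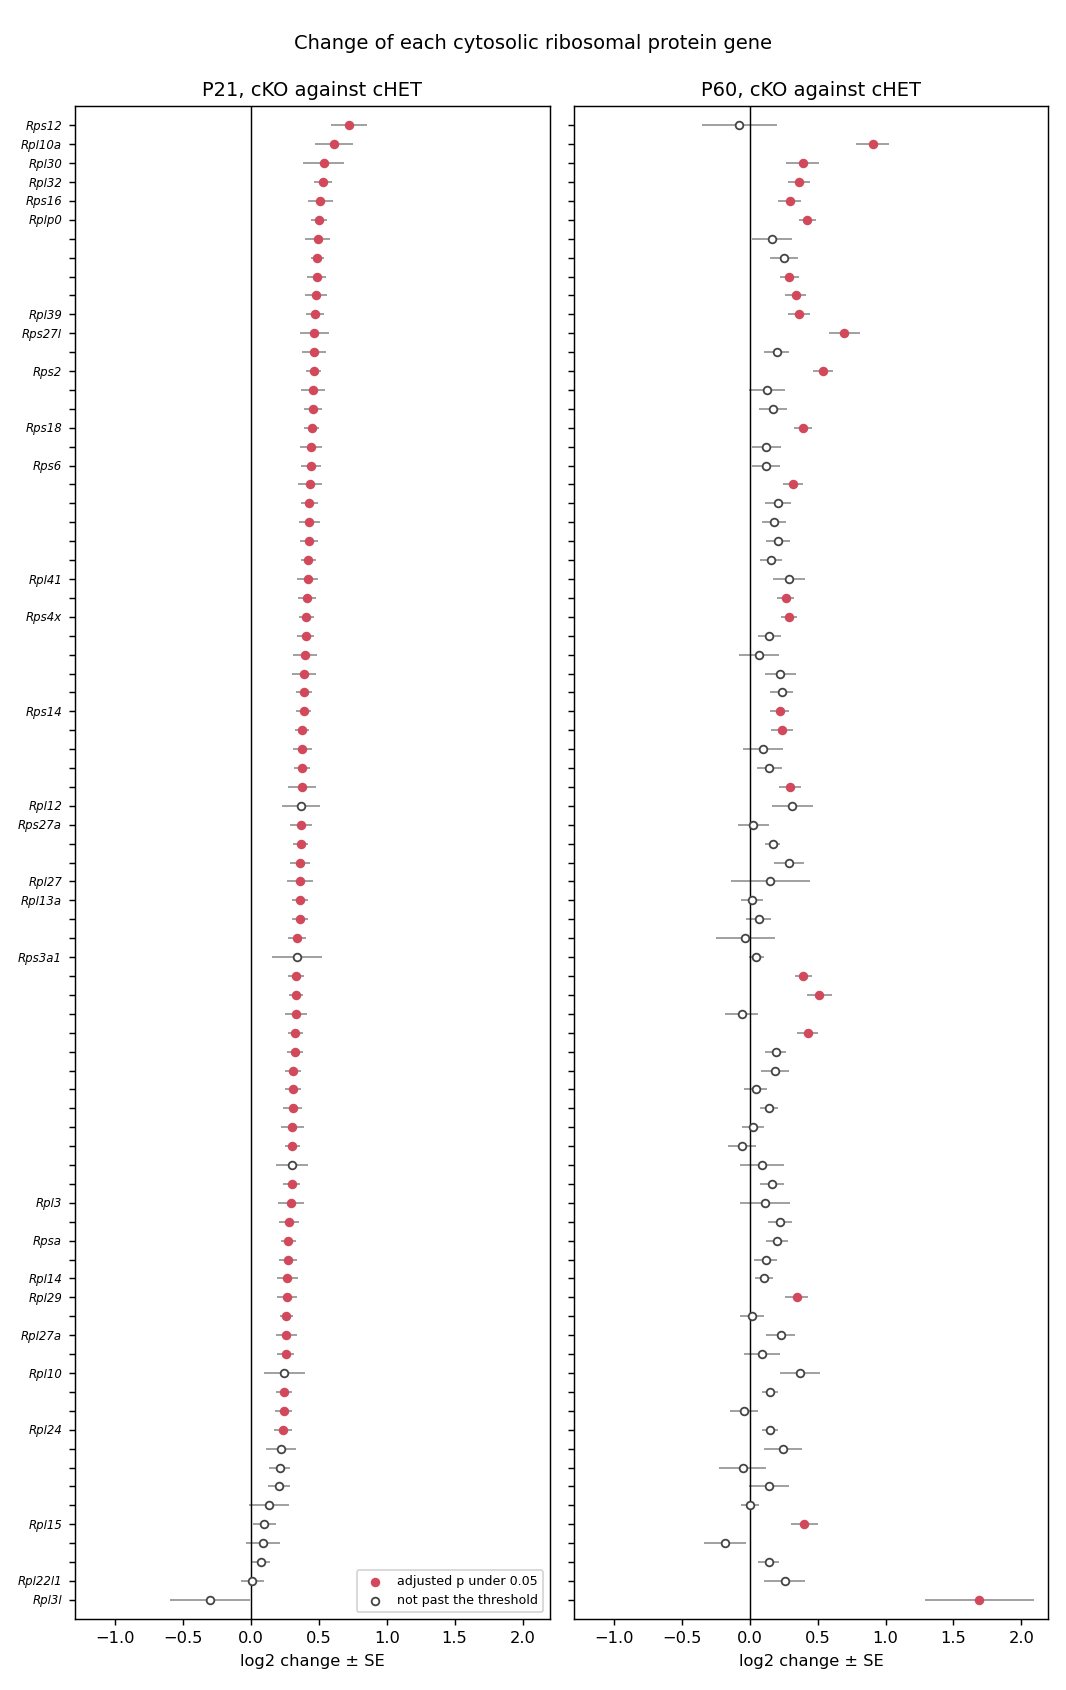
Log2 change ± SE of each of the 79 genes in cKO against cHET at P21 (left) and P60 (right), both ordered by the P21 change, with names given for some of them; filled points passed an adjusted p of 0.05. At P21 66 points are filled and 78 lie right of 0, while at P60 23 are filled, the order of P21 is not kept, and Rpl3l stands at 1.69.

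The genes that did not pass in that comparison were Rpl5, Rpl10, Rpl12, Rpl15, Rpl23a, Rpl36a, Rpl38, Rps3a1 and Rps10 and all paralog copies but Rps27l. Rpl12 had a change of 0.37 and Rps3a1 of 0.34, with standard errors of 0.14 and 0.18. For both genes every cKO library lay above every cHET library. Rpl10 had 0.25 ± 0.15, and its values (1949 to 3160 in cKO) overlapped those of cHET (1632 to 2264).

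Paralog copies were compared with their main copies. Rps27l, a p53-responsive copy of Rps27, rose by 0.47 ± 0.11 against cHET (adjusted p = 5.2e-03), beside 0.42 ± 0.05 for Rps27. Rpl22 rose by 0.43 ± 0.07, whereas Rpl22l1 had a change of 0.01 ± 0.08 (adjusted p = 0.96). Values of Rpl22 were 1711 to 1998 in cHET and 2279 to 2704 in cKO, and those of Rpl22l1 were 1347 to 1552 and 1353 to 1673. Rpl7 rose by 0.32 ± 0.06 beside 0.07 ± 0.06 for Rpl7l1, and Rps4x by 0.41 beside 0.09 ± 0.13 for Rps4l. Rpl3l had -0.30 ± 0.29. The differences between copies were not tested.

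Some messages of these genes carry the pyrimidine run at their start. In windows around the RefSeq start sites (GRCm38.p6), a run was counted where a C followed by at least 4 letters C or T began within 5 bases of the annotated start, on the gene's own strand. Of 60 members with a window, 28 (46.7%) held a run, against 4961 of 26965 other genes (18.4%). The 28 had a median P21 change of 0.37 with 23 called higher, and the 32 without had 0.35 with 26 called. At P60 the medians were 0.22 and 0.16, with 8 called in each set. Annotated starts can lie some bases from the true start, and a window without a run says only that these letters are absent near the annotated one. The windows below hold 15 bases before the annotated start and 15 from it on, 5′ to 3′ on the gene's strand, with the counted run in capitals. The capitals begin at a C within the 5 bases searched. Letters C or T just before that C, as in Rpl35 and Rpl22l1, were not counted, so the whole pyrimidine stretch can begin earlier. Rps6, Rps18 and Rpl35 are examples of long runs in genes that rose. Long runs were also found in Rpl15 (17 bases) and Rps10 (13 bases), which did not pass at P21. Rpl27a, with a run of 20 bases, had one of the smallest changes that passed (0.26). Rplp0 and Rpl41 rose with no run in the window, and Rpl22 and Rpl22l1 show a pair in which the copy with the run did not pass.
Rps6 (chr4:86857353-86857382, minus strand): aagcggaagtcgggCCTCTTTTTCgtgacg
Rps18 (chr17:33955651-33955680, minus strand): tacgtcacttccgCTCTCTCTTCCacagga
Rpl35 (chr2:39005117-39005146, minus strand): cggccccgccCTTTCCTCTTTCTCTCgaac
Rplp0 (chr5:115559452-115559481, plus strand): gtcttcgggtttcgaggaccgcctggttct
Rpl41 (chr10:128549154-128549183, minus strand): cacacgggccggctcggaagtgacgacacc
Rpl22 (chr4:152325711-152325740, plus strand): ttcgccctgggaaaagcaatagctggccga
Rpl22l1 (chr3:28805493-28805522, plus strand): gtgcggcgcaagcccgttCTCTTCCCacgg

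Against control, which shares the P21 cKO libraries with the comparison above, 72 of 79 genes rose and none fell (14.6% of all genes tested were called higher and 12.3% lower). The median change was 0.47, all 79 changes were positive, and 70 genes had no overlap between groups, against 15% of all genes. All 31 small-subunit genes, 37 of 40 large-subunit genes, 3 of 3 stalk genes and 1 of 5 paralog copies passed. Rps3a1 had the highest change, 0.89 ± 0.18 (adjusted p = 2.4e-03). Its control libraries split, at 3750, 3640, 6672 and 7299, beside 7202 to 7975 in cHET and 8715 to 10575 in cKO. Rps12 and Rpl32 each rose by 0.68 and Rpl10a by 0.67. Rpl15, Rpl4, Rpl23a and Rpl14 were the lowest called, at 0.27 to 0.34. Rpl15 no longer passed without control 2, 3 or 4 or without cKO 2 or 4 (0.23 without control 4, adjusted p = 0.084).

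The P21 cHET and control groups differ by Cre and 1 floxed allele. None of the 79 genes passed in limma, where 0.0111% of all genes did in either direction, and none passed in the authors' deposited table. At an unadjusted p under 0.05 there were 24, with no share of all genes given for that threshold. The changes were small and mostly of one sign, with a median of 0.12 against 0.00 over all genes and 73 of 79 positive, against 51.3% of all genes. For 12 genes every cHET library lay above every control library, which held for 3.12% of all genes. Those 12, listed after their values were seen, were Rpl7a, Rpl11, Rpl18, Rpl19, Rpl26, Rpl41, Rplp1, Rps9, Rps14, Rps15, Rps21 and Rpsa. No gene had all cHET libraries below all controls, against 2% of all genes.

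At P60 fewer genes passed, and the median changes were smaller. The P60 groups held 3 mice against 4 at P21, with another kit and, in cKO and cHET, males only. Age therefore cannot be told apart from these differences. Against cHET 23 of 79 genes rose and none fell (13.4% of all 16833 genes tested were called higher and 11.5% lower). The median was 0.19, with quartiles of 0.11 and 0.29, against 0.00 over all genes, and 72 changes were positive. For 28 genes the groups did not overlap, against 20.6% of all genes. By role, 10 of 40 large-subunit genes, 10 of 31 small-subunit genes, 1 of 3 stalk genes and 2 of 5 paralog copies passed. Leaving out each P60 library in turn gave counts from 16 (without cHET 2) to 35 (without cHET 1). The median then ran from 0.14 (without cHET 3) to 0.28 (without cHET 1). Since cHET 1 stood above the other cHET libraries, its removal could only raise the difference.

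Of the 23 genes, 21 had also risen at P21, where 66 of all 79 had, while Rpl3l and Rpl15 had not passed there. The share of all genes called higher at both ages was not counted. Rplp0 was 2133, 2205 and 2131 in P60 control, 2255, 2329 and 2281 in cHET and 3266, 3140 and 2807 in cKO. The cKO values cleared both other groups, and the rise over cHET was 0.42 ± 0.06 (adjusted p = 4.9e-04). Rps2 was 4572, 5420 and 5383 in control, 5374, 4911 and 5260 in cHET and 7739, 7609 and 7178 in cKO, with a rise of 0.54 ± 0.07. Rps27l was 126, 116 and 101 in control, 118, 108 and 100 in cHET and 178, 183 and 167 in cKO, and rose by 0.70 ± 0.12. These 3 genes had separate cKO groups at both ages. Rpl32 and Rpl39 each rose by 0.36, Rps16 by 0.29, Rps4x by 0.29 ± 0.06 and Rps14 by 0.22. Without cHET 3 the Rps14 change was 0.16 (adjusted p = 0.13) and that of Rps16 was 0.22 (adjusted p = 0.091).

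Other genes of the set did not pass at P60. Rps6 was 3092, 3714 and 3643 in control, 3913, 3166 and 3185 in cHET and 4122, 3453 and 3562 in cKO. Its groups overlapped, and the change against cHET was 0.12 ± 0.10 (adjusted p = 0.45). Rps27a (0.03 ± 0.12) and Rpl13a (0.01 ± 0.08) had changes near 0. Rps12, highest at P21, was 690, 895 and 603 in control, 1154, 929 and 873 in cHET and 538, 1159 and 1277 in cKO. Its spread was wide, and its change was -0.08 ± 0.28. Without cKO 1, the lowest of these cKO libraries, the change was 0.31 (adjusted p = 0.23).

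**Figure D4:**
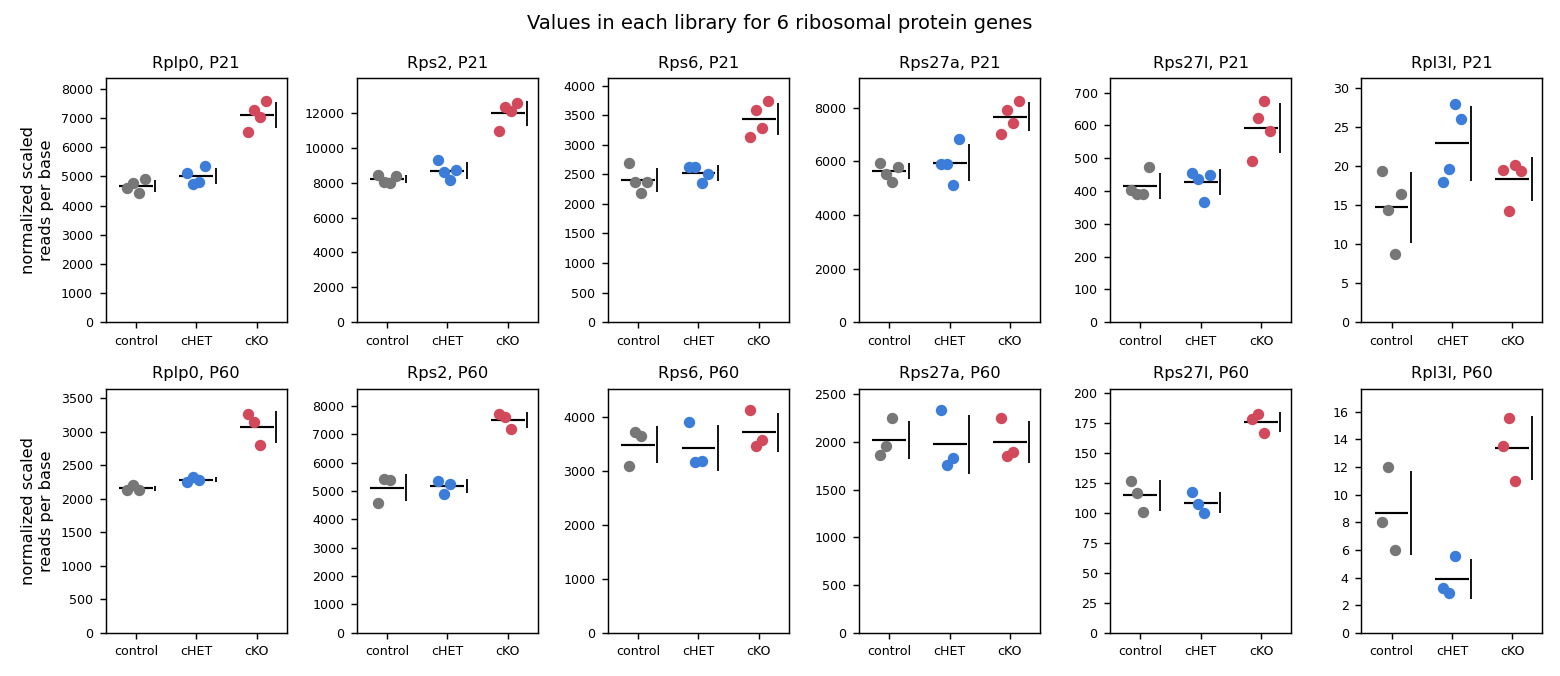
Normalized scaled reads per base in each library (points) for Rplp0, Rps2, Rps6, Rps27a, Rps27l and Rpl3l at P21 (top) and P60 (bottom), with the group mean (horizontal line) and SD (vertical line); every axis starts at 0 and has its own scale. The cKO libraries of Rplp0, Rps2 and Rps27l lie above the other genotypes at both ages, those of Rps6 and Rps27a at P21 but not at P60, and Rpl3l is lowest in P60 cHET.

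Rpl3l (GRCm38 chromosome 17, 24727820 to 24736143) followed another course. It was 19.3, 14.3, 8.69 and 16.4 in P21 control, 17.96, 19.7, 27.9 and 25.9 in cHET and 19.5, 14.2, 20.2 and 19.4 in cKO. At P60 it was 8.01, 12.01 and 5.98 in control, 3.23, 2.91 and 5.55 in cHET and 13.5, 15.6 and 11.0 in cKO. All P60 cHET libraries lay below the other genotypes, and the cKO change was 1.69 ± 0.40 against cHET (adjusted p = 0.010) and 0.63 ± 0.40 against control (adjusted p = 0.29). These values are near the filter of 5, where the pseudocount of 0.5 lowers fold changes.

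Against P60 control 23 of 79 genes rose and none fell (14.5% of all genes tested were called higher and 11.4% lower). The median was 0.21, 70 changes were positive, and 46 genes had no overlap, against 22% of all genes. Rpl10a (0.71), Rps27l (0.62), Rpl12 (0.57) and Rps2 (0.55) were the highest called, and Rpl23 (0.26), Rps4x (0.27) and Rpl39 (0.29) were among the lowest. Without cKO 1 the Rpl12 change was 0.47 (adjusted p = 0.075), Rpl23 was 0.19 and Rpl39 was 0.25, and none of these 3 passed. The count fell to 14 without cKO 1 and to 15 without control 1. In P60 cHET against control none of the 79 passed in limma or in the authors' deposited table (0.0178% of all genes passed in limma). An unadjusted p under 0.05 was found for 2, with no share of all genes given for that threshold, and the median was 0.00. All cHET libraries lay above all controls for 2 genes (6.17% of all genes) and below for 4 (4% of all genes).

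The change in cKO against cHET was compared between ages as an interaction, P60 minus P21. Library kit, sex of the mice and group size also differed between the ages, and age cannot be told apart from them. The interaction was negative for 66 of the 79 genes, with a median of -0.16 against 0.00 over all genes. One gene passed, Rpl3l at 1.99 ± 0.45 (adjusted p = 0.017), where 1.27% of all genes were called higher and 2.71% in either direction. At an unadjusted p under 0.05 there were 20 genes, with no share of all genes given for that threshold. Rpl13a came closest among the others with -0.35 ± 0.10 (adjusted p = 0.086), and Rps6 had -0.32 ± 0.13 (adjusted p = 0.24). For Rplp0 and Rps2 the difference was -0.08 ± 0.09 and 0.07 ± 0.09. Across the 79 genes the P21 and P60 changes had a Spearman rho of 0.34 and a Pearson r of -0.16, given as a description, since genes share libraries. Rpl3l, the gene with the lowest values, had the lowest change at P21 (-0.30) and the highest at P60 (1.69), which lowers the Pearson r. The Pearson r without Rpl3l was not computed.

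Members without values for each library were Rpl8, Rpl36 and Rpl37. In the authors' deposited table they had P21 changes against cHET of 0.26 (q = 1.8e-03), 0.38 (q = 1.2e-06) and 0.32 (q = 1.6e-04) on the log2 scale. At P60 that table gave 0.04 (q = 0.77), 0.28 (q = 3.2e-03) and 0.01 (q = 0.99). For 7 of the 79 members (Rpl3, Rpl10a, Rpl13a, Rpl15, Rps10, Rps23 and Rps24) the libraries did not give the authors' mean at 1 or both ages. Rps24 at P60 was -0.04 against cHET from the libraries (adjusted p = 0.80), while the authors' deposited table has -0.37 (q = 1.1e-03). Rpl15 at P60 was 0.40 (adjusted p = 0.013; 0.35 and 0.052 without cHET 2) from the libraries and 0.19 (q = 0.49) in the authors' deposited table.

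Other genes of the translation apparatus were counted in the same fits of cKO against cHET, where 12.6% of all genes were called higher and 9.97% lower at P21, and 13.4% and 11.5% at P60. Of 3 ribosome components named outside the symbol pattern, 2 rose at each age. Rack1, a scaffold on the small subunit, rose by 0.55 at P21 and 0.56 at P60. Fau, fused to a ubiquitin-like protein, rose by 0.33 at P21 and by 2.12 ± 0.44 at P60 (adjusted p = 4.8e-03), and its difference between ages was 1.79 ± 0.44 (limma interaction, adjusted p = 0.028). At P60 Fau was 55.6 to 143 in cHET, 244 to 596 in cKO and 195 to 548 in control, so the groups of cKO and control overlapped. Of 13 tested translation factors and other genes with TOP messages, 6 rose and none fell at P21 (median 0.18). They included Pabpc1, the poly(A)-binding protein (0.68), and the elongation factor subunits Eef1a1 (0.50) and Eef1d (0.30). At P60 4 rose and 1 fell (median 0.10). Of 23 ribosome biogenesis genes 3 rose at P21 and none fell (median 0.03), namely the nucleolar proteins Fbl (0.47) and Ncl (0.23) and the coactivator Pprc1 (0.42), and at P60 1 rose and 1 fell (median 0.05). The P21 count for biogenesis is near the share of all genes called higher. Of 14 genes of mTOR control 3 rose at P21 and none fell (median -0.01). These were Myc (1.36), a transcription factor for growth genes, and the translation repressors Eif4ebp1 (0.76) and Eif4ebp2 (0.17), and at P60 2 rose and 2 fell (median 0.02). Of 78 mitochondrial ribosomal protein genes 2 rose and 1 fell at P21 (median 0.00), with Mrps6 at 0.36, Mrpl24 at 0.19 and Mrpl58 at -0.22. At P60 8 rose and 1 fell (median 0.02).

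Markers of cell types moved in the same comparisons. Of 12 microglial markers 10 rose and 1 fell in P21 cKO against cHET (median 2.48), and their summed value was 14827 to 16952 in control, 15471 to 18344 in cHET and 64379 to 88895 in cKO. At P60 10 rose and 2 fell (median 2.26), with sums of 6994 to 8406, 8261 to 8913 and 30971 to 42189. None of these 12 markers was at 0 in any library. Proliferation markers rose for 4 of 6 at P21 (median 0.86) and 6 of 6 at P60 (median 1.60), and oligodendrocyte precursor markers for 3 of 4 (0.72) and 4 of 4 (0.86). Astrocyte markers rose for 6 of 8 at P21 (0.42) and 4 of 8 at P60 (0.38). Of 12 mature oligodendrocyte markers 1 rose and 9 fell at P21 (median -0.52), and 1 rose and 11 fell at P60 (-0.95). Neuronal markers fell for 7 of 9 (-0.28) and 5 of 9 (-0.19). In P21 cKO against cHET none of 3 tested leukocyte markers and 5 erythrocyte markers passed, 1 of 3 endothelial markers fell, and 1 of 4 Schwann cell markers rose. At P60 none of 2 leukocyte, 3 endothelial and 4 Schwann cell markers passed, and 1 of 5 erythrocyte markers fell. Against P60 control 3 of 5 erythrocyte markers fell (median -1.53). The erythrocyte sum was 39552 in P60 control 1, against 8147 and 10164 in the other controls. With all libraries 23 ribosomal protein genes passed against control, and without control 1 this was 15. Without cKO 1, where the erythrocyte sum was 5367, the count was 14. The Schwann cell sum was 861 in P60 cHET 2, against 76.5 and 71.0 in the other cHET libraries. Against cHET 23 ribosomal protein genes passed with all libraries and 16 without cHET 2. Whether these marker sums bear on the counts was not tested, and a smaller group by itself can lower a count. The leukocyte marker S100a9 was at 0 in all 3 P60 control libraries. Summed values of microglial, astrocyte and oligodendrocyte precursor markers in cKO libraries lay above those of the other genotypes at both ages. In those lists control and cHET overlapped. Sums of mature oligodendrocyte markers in cKO libraries lay below those of the other genotypes at both ages. The ribosomal protein medians against cHET were 0.36 at P21 and 0.19 at P60. The part of any of these cell types in the ribosomal protein changes was not tested.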

How the data were processed

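The authors deposited a signal for each gene and library, given as normalized scaled reads per base, and per the submitters' processing notes kallisto 0.43.0, sleuth 0.28.1 and GRCm38 were used, with no role stated for any of them. Per the file headers, the authors' 6 comparison tables hold effects with standard errors and a mean on the natural log scale, which were divided by the natural log of 2, and a p-value and q-value per gene, used as the authors deposited them. Ribosomal protein genes have many processed pseudogene copies, and how the authors' quantification assigned reads shared with them is not stated.

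Values were taken to log2(value + 0.5), and a fold change on this scale understates the change of low genes. Genes reaching 5 in at least 4 (P21) or 3 (P60) libraries were fitted with limma 3.58.1 (R 4.3.3), the 3 genotypes of an age together. Moderated tests were 2-sided, and p-values were adjusted over all genes tested by the Benjamini-Hochberg method. SE is the moderated standard error. The difference between ages was the interaction in 1 fit of all 6 groups. No list was tested. Values of some genes are not reported here. Members and lists were chosen with earlier results of these data known.

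Named genes were 8 chosen by role, paralog pairs, the 3 highest and 3 lowest levels at P21, and the called genes with the highest and lowest changes, up to 8 each in P21 cKO against cHET and 4 each elsewhere. From each other list up to 3 called genes with the smallest p were named. Rps18, Rpl35, Rpl5, Rpl36a, Rpl38, Rps10 and the P21 cHET genes without overlap were named after their values were seen. Alternatives were other pseudocounts, filters, scalings, fits of the 2 groups compared, sex as a covariate, the authors' test and removal of each library, and 2 more were added after seeing the data. The fits were tested on simulated data. Positions are from the annotation of GRCm38, start windows from RefSeq (60 of 79 members matched).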

Additional observations from a re-analysis of the deposited data

Results flagged for a closer look

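Single libraries of P21 groups were compared with the other 3 by the gap to the nearest value over the group's range. Among 45 named genes and the mean of all members, in 138 groups of 4 libraries, 7 values stood out, in 5 different libraries, and chance alone marks about 1 group in 20. Rpl12 was 392 in control 4, against 298 to 311 in the other controls, and 233 in cHET 3, against 338 to 350 in the other cHET libraries. Rps24 was 8448 in the same cHET 3 library, against 9214 to 9301. Rps14 was 5789 in control 2, against 6574 to 6696, and Rps27l was 473 in control 4, against 391 to 404. Among cKO libraries, Rps4l was 955 in cKO 1, against 1103 to 1111, and Rpl3l was 14.2 in cKO 2, against 19.4 to 20.2.

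The effect of cKO against cHET on Rpl3l differed between ages, by 1.99 ± 0.45 on the log2 scale (P60 minus P21; limma interaction, adjusted p = 0.017). Its values in P60 cHET were 2.91 to 5.55, at or below the filter of 5 in 2 of 3 libraries.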

How the results depend on the processing

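The counts of called members stayed within 1.5 times under every alternative for the P21 comparisons, and the direction never changed. Leaving out each library gave 61 to 68 called members (median 0.31 to 0.40) in P21 cKO against cHET, 68 to 73 (0.43 to 0.51) against control and 0 (0.09 to 0.15) in cHET against control. At P60 the ranges were 16 to 35 (0.14 to 0.28), 14 to 32 (0.17 to 0.25) and 0 (-0.08 to 0.05). Without control 1 the P60 count against control was 15. For the age difference, with 1 called member, the count was 0 with a mean of at least 50, 2 with median-of-ratios scaling, 3 with quantile normalization and 0 to 7 leaving out each library, with 0 without P60 cHET 1 or cHET 2, 2 without P60 cKO 3 and 7 without P60 cHET 3. The authors' test called 68 and 72 members at P21 and 23 and 27 at P60. It called 1 of these lower at P60 in each comparison, Rps24.

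Changes that turned in sign were in genes that had not passed. Leaving out each library gave -0.046 to 0.056 for Rpl22l1 at P21 (negative without cHET 3, cKO 3 or cKO 4). At P60 against cHET it gave -0.11 to 0.33 for Rpl3 (negative without cHET 2), -0.062 to 0.15 for Rps27a (without cHET 2, cHET 3 or cKO 1), -0.081 to 0.10 for Rpl13a (without cHET 3 or cKO 1) and -0.095 to 0.39 for Rpl27 (without cHET 3 or cKO 2). It gave -0.31 to 0.31 for Rps12 (positive without cHET 1 or cKO 1) and -0.11 to 0.080 for Rps24 (positive without cHET 1 or cKO 3). With P60 control 1 and cHET 3 both left out, an alternative added after seeing the data, Rps27a was -0.024, Rpl13a -0.081 and Rpl27 -0.095. Rpl3 lost its P21 call in 10 of 21 alternatives and Rpl30 in 1; the cause was not tested. Other named genes called near the threshold also lost their call, with no change of direction, when 1 library was left out. In P21 cKO against cHET these were Rpl14 (0.19 without cKO 4, and also without cKO 2, cHET 1 or cHET 2), Rpl24 (0.17 without cKO 4, and also without cHET 1, cHET 2 or cHET 3), Rpl27a (0.20 without cKO 4, and also without cKO 3, cHET 1 or cHET 3) and Rpl29 (0.23 without cHET 2 or cHET 3). At P60 against cHET, Rps14 was 0.16 without cHET 3 (adjusted p = 0.13), and also did not pass without cHET 2, control 2, cKO 1 or cKO 2. Rps16 was 0.22 without cHET 3 and also did not pass without cHET 2, cKO 1 or cKO 2, and Rpl15 did not pass without cHET 2. Of genes that had not passed, Rps3a1 at P21 had an adjusted p of 5.1e-03 when only cKO and cHET were fitted. No paired analysis was possible because replicate numbers were given in accession order and pair no mice. Depth is unknown, since only scaled values were deposited, so precision rests on the spread of 3 or 4 mice.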
